A study of Xenopus tropicalis with 2 samples.

Results

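The bmper and cdx nuclei are 400 of 7440 nuclei of the Xenopus tropicalis early gastrula, chosen by their RNA of 5 genes: bmper, cdx2, cdx4, ventx3.2 and hoxd1. Nuclei with at least 1500 detected genes and at most 8000 unique molecular identifiers (UMIs, distinct transcripts counted once) were scored by the summed UMIs of these genes over all UMIs of the nucleus. A nucleus needed a UMI of at least 2 of the genes to be eligible, which 1494 did, and the 400 highest scores were taken. The other 7040 nuclei are called all other nuclei below. The question asked of the members was whether their other genes are those of mesoderm or of posterior ectoderm.

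All nuclei came from wild-type whole embryos at stage 10.5, 200 of which were homogenized together. RNA of single nuclei was barcoded in rounds of wells with the Parse method, and the 2 samples are sublibraries of this 1 pool. They differ only technically, so no other genotype, treatment or time was compared, there is no test between groups and no p-value. Levels are in CPM, the UMIs of a gene per 1000000 UMIs summed over a class of nuclei, with exact 95% Poisson intervals for levels and folds and exact 95% binomial (Clopper-Pearson) intervals for shares. These intervals cover counting error only, and the spread over sublibraries covers technical error only.

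The 195 members of sublibrary 1 and the 205 of sublibrary 2 held 904166 and 945276 UMIs. The median member had 4312 UMIs and 1774 genes, against 4429 and 1782 in all other nuclei, so depth was close. No barcode well combination was shared by members of both sublibraries, while 164 were shared among all 7440 nuclei. A Scrublet doublet score above 0.15 was given to 12 of 400 members (3.00%, 1.56 to 5.18%) and to 367 of 7040 other nuclei (5.21%, 4.71 to 5.76%).

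Bmper is a secreted protein that binds BMP ligands and modulates their signal, and in the frog gastrula it belongs to the genes of the ventral side, where BMP signalling is high. The Cdx proteins are caudal-type homeobox factors that give posterior identity and act upstream of Hox genes, of which hoxd1 is one, and the Ventx proteins are homeobox factors induced by BMP. On the ventral and posterior side of the gastrula, mesoderm of the marginal zone, marked by T-box factors such as Brachyury (tbxt), borders on ectoderm. That ectoderm has an inner layer, in which the basal epidermal factor Tp63 is known, and an outer epithelial layer with Grainyhead-like factors and keratins. Brachyury and neural Sox factors can be present together in progenitors of the later tail bud.

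The 5 genes that chose the members are given as a description. Bmper (chr6:62442309-62565986, UCB_Xtro_10.0) was at 1541 CPM in members and 142 CPM in all other nuclei. Cdx2 (chr2:155090058-155097581) was at 499 against 44.2 CPM and cdx4 at 567 against 67.2 CPM. Ventx3.2 was at 143 against 18.1 CPM and hoxd1 at 44.3 against 5.46 CPM. A UMI of bmper was found in 351 members, of cdx4 in 355, of cdx2 in 286, of ventx3.2 in 162 and of hoxd1 in 69, and most members carried several: 114 had 2 of the genes, 163 had 3, 109 had 4 and 14 had all 5. Members held 6 to 35 UMIs of the 5 genes, with a median of 12. The score was continuous at the limit, with 18.3 UMIs per 10000 in the last member and 18.2 in the first nucleus outside, so the members are the top of a range and not a set apart.

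To ask what the members are, they were set beside 6 classes of other nuclei, each chosen by marker genes that were then left out of the comparison. They are called by their leading markers: the wnt8a and rspo3 nuclei (ventrolateral mesoderm, 361), the shh and chrd.1 nuclei (dorsal mesoderm, 336), the slc12a3l and foxp2 nuclei (endoderm, 296), the mettl24 and epha3 nuclei (inner epidermal ectoderm, 355), the pde7b and zic4 nuclei (inner neural ectoderm, 365) and the creb3l4 and atp1b2 nuclei (outer ectoderm, 388). The wnt8a and rspo3 nuclei also held endodermal genes, with gata6 at 1604 CPM against 961 CPM in the slc12a3l and foxp2 nuclei, so they are not mesoderm alone. The slc12a3l and foxp2 nuclei in turn held genes of the outer ectoderm, as given below, so they are not endoderm alone. The rule genes summed were at 377 CPM in the wnt8a and rspo3, 371 in the mettl24 and epha3 and 292 in the slc12a3l and foxp2 nuclei, and at 69.7 to 120 in the others. A bmper UMI was in 32.7% of the first and 47.6% of the second, and a ventx3.2 UMI in 25.5% and 5.07%. How far the rule thereby drew nuclei of both kinds into the members was not tested.

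The members carried the mesodermal gene tbxt and the epidermal gene tp63 together, both above all other nuclei. The lists of mesoderm and inner epidermal genes were not higher as a whole. Their median log2 ratios were -0.02 and 0.05, against -0.04 for all genes compared, as given below. Tbxt, a T-box factor of the whole mesoderm ring (chr5:55128624-55135774), was at 1173 and 1072 CPM in members of sublibraries 1 and 2 and at 471 and 467 CPM in all other nuclei. The 2.39-fold difference (2.28 to 2.50) was far larger than the spread between sublibraries. Tp63, the factor of the basal epidermis (chr5:103961456-104069403), was at 401 and 398 CPM against 114 and 107 CPM, 3.62-fold (3.34 to 3.92). In members, tbxt was at 0.730 times its level in the wnt8a and rspo3 nuclei (0.689 to 0.774) and far above the 102 CPM of the mettl24 and epha3 nuclei. Tp63 was at 17.4 times its level in the wnt8a and rspo3 nuclei (12.7 to 24.6) and also above the mettl24 and epha3 nuclei, at 1.62 times their level (1.44 to 1.83). The tp63 level of the members was thus above that of each of the classes it was compared with.

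**Figure D1:**
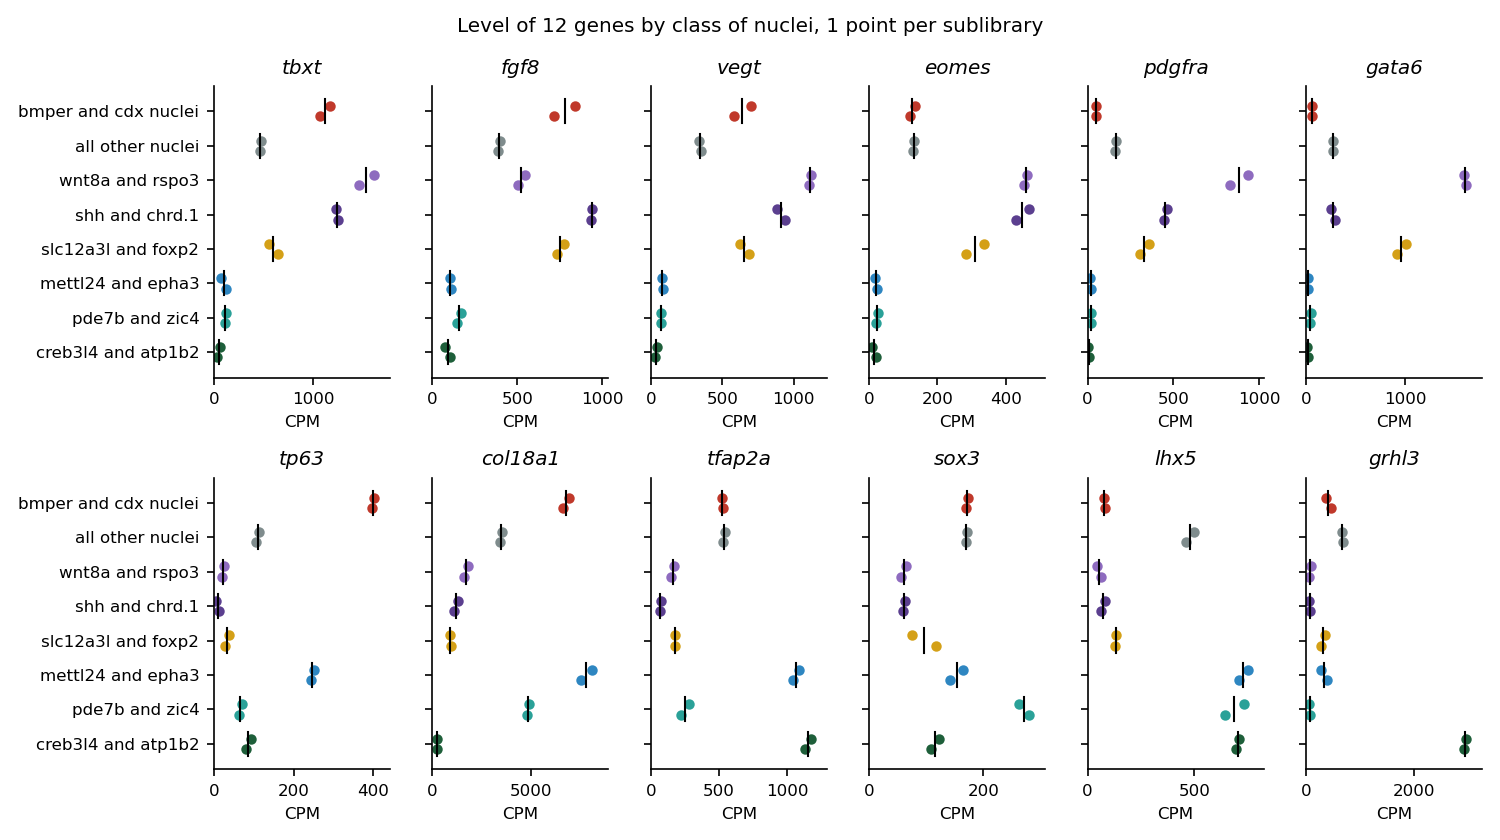
Level of 12 genes in CPM (linear axes from 0) in the bmper and cdx nuclei, all other nuclei and the 6 marker-chosen classes, with 1 point per sublibrary and a line at their mean. Tbxt and fgf8 of the members lie near the mesodermal classes, vegt lies below them but above all other nuclei, and eomes, pdgfra and gata6 lie far below the wnt8a and rspo3 nuclei, while tp63 lies above every class and col18a1 beside the mettl24 and epha3 nuclei.

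Both signals were found in the same nuclei. A tbxt UMI was detected in 308 of 400 members (77.0%) and a tp63 UMI in 206 (51.5%), and 152 members had both (38.0%, 33.2 to 43.0%). Of the members with tbxt 152 of 308 had tp63 (49.4%), and of those without tbxt 54 of 92 (58.7%). Tp63 was thus not more frequent with tbxt than without it, and the share with both is not above what the single shares give. The shares with both in the classes below are likewise bounded by the share of the rarer gene. Both genes were detected together in 24 of 361 wnt8a and rspo3 nuclei (6.65%), in 29 of 355 mettl24 and epha3 nuclei (8.17%) and in 564 of 7040 other nuclei (8.01%). After each nucleus was thinned to 2500 UMIs, which left out none, 112 members had both (28.0%, 23.7 to 32.7%), against 14 of 361 (3.88%) and 11 of 355 in the same classes. Classes that should lack the gene gave a scale for background such as free RNA. A tp63 UMI was found in 13 of 336 shh and chrd.1 nuclei (3.87%, median depth 4562 UMIs). A tbxt UMI was found in 51 of 388 creb3l4 and atp1b2 nuclei (13.1%, median depth 4295 UMIs). These were the lowest shares of the 6 classes. For tp63 the wnt8a and rspo3 nuclei had 7.48% and the slc12a3l and foxp2 nuclei 9.46%. The pde7b and zic4 nuclei had 17.5% and the creb3l4 and atp1b2 nuclei 20.9%. For tbxt the mettl24 and epha3 nuclei had 18.6% and the pde7b and zic4 nuclei 23.6%. Whether these are background or expression was not tested. Both shares of the members lay above them.

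Nuclei with a doublet score above 0.15 were then left out before the members were chosen anew. The log2 ratio of tbxt was 1.28 without and 1.26 with them, and that of tp63 1.82 and 1.85. Barcodes with at most 200 UMIs, which hold mostly free RNA, had tbxt at 722 CPM and tp63 at 110 CPM, both below the levels over all members. This tbxt level was above the 469 CPM of all other nuclei. It was also above the tbxt level of the 176 members closest to the mettl24 and epha3 nuclei, described below. How much free RNA adds to the tbxt of those members was not tested.

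Summed over whole lists, the members stood between the same classes. The 30 mesoderm genes together were at 3805 ± 259 CPM in members (mean ± SD, n = 2 sublibraries), at 2143 ± 6.23 in all other nuclei, at 6214 ± 324 in the wnt8a and rspo3 nuclei and at 642 ± 67.3 in the mettl24 and epha3 nuclei. Most of the members' sum came from tbxt, fgf8 and vegt, at 1123, 779 and 640 CPM, with dll1 also high. It thus stands for few of the 30 genes and not for a broad mesoderm signal. The 18 inner epidermal genes were at 11790 ± 242 CPM in members, 6318 ± 346 in the wnt8a and rspo3 nuclei and 13173 ± 403 in the mettl24 and epha3 nuclei. Of this, col18a1 alone was at 6793 ± 229, 1728 ± 159 and 7847 ± 419 CPM. Most of the contrast between members and the wnt8a and rspo3 nuclei in this sum is thus 1 gene. Col18a1 was also at 4875 ± 100 CPM in the pde7b and zic4 nuclei, so it is not epidermal alone. In single nuclei, the median member had 37.5 UMIs per 10000 of the mesoderm list, against 63.7 in the wnt8a and rspo3 nuclei and 2.80 in the mettl24 and epha3 nuclei. For the inner epidermal list the medians were 115, 60.3 and 132. The list without col18a1 was not computed for single nuclei. In all, 326 of 400 members exceeded both the mesoderm median of the mettl24 and epha3 nuclei and the inner epidermal median of the wnt8a and rspo3 nuclei, as did 180 of 361 and 161 of 355 nuclei of those classes. Since each limit is the median of one of these classes, the share of that class that can exceed both is limited by construction, and its count is no comparison with the members. Taken singly, 384 members exceeded the mesoderm limit and 337 the inner epidermal limit. With single counts this high most members must exceed both, so the 326 show no link between the lists. The mesoderm limit of 2.80 UMIs per 10000 is also very low at the members' median depth of 4312 UMIs.

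**Figure D2:**
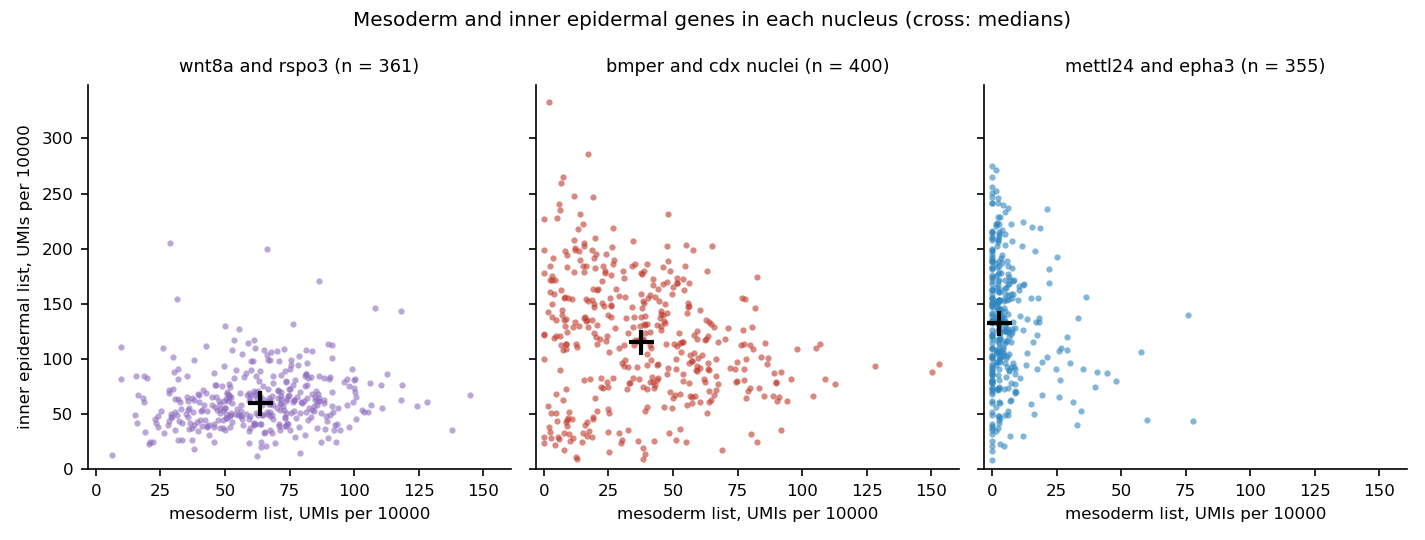
UMIs per 10000 of the mesoderm list (x) and the inner epidermal list (y) in each nucleus of the wnt8a and rspo3 class (left), of the bmper and cdx nuclei (middle) and of the mettl24 and epha3 class (right), with a cross at the medians. The cross of the members (37.5 and 115) has a mesoderm value between the crosses of the other panels (63.7 and 2.80) and an inner epidermal value close to that of the right panel (132), and some members lie low on both axes. Col18a1 makes up most of the inner epidermal list in the members and in the mettl24 and epha3 class. In the members, tbxt, fgf8 and vegt make up most of the summed mesoderm list.

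Across all genes, 7540 genes with at least 200 UMIs over all nuclei were compared, the 5 rule genes left out, and a gene was called where its log2 ratio of CPM + 1 was at least 1 (2-fold) in the pool and in each sublibrary. Of these, 79 were called higher in members (1.05%) and 363 lower (4.81%), and the median log2 ratio of all genes was -0.04. The label of ventral and posterior nuclei was checked on genes outside the rule. By the medians of the gene lists the members were above all other nuclei in ventral genes and below them in dorsal, endodermal and neural genes, while the posterior, mesoderm and inner epidermal lists had medians near that of all genes, with single genes called.

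Of the mesoderm list, 14 of 30 genes were compared, 2 were higher and 2 lower, and the median log2 ratio was -0.02. The Notch ligand gene dll1 was the other gene called higher besides tbxt, at 877 and 847 CPM against 378 and 374 CPM. Fgf8, a growth factor made in the mesoderm ring, was at 778 against 393 CPM (log2 ratio 0.98) and the T-box gene vegt at 639 against 345 CPM (0.89), which both passed 2-fold in sublibrary 1 only. Other mesodermal genes did not share this. Pdgfra, a receptor of migrating mesoderm, was lower at 48.1 against 164 CPM and tbxt.2, a copy beside tbxt, lower at 9.19 against 26.3 CPM. Eomes, a T-box factor of early mesendoderm, was at 127 against 130 CPM, and the members' eomes level lay well below the 458 CPM of the wnt8a and rspo3 nuclei. Against that class 9 of 14 mesoderm genes were lower in members and 0 were higher, where 6.24% and 7.76% of all 7516 genes compared were lower and higher. Against the mettl24 and epha3 nuclei 11 of 14 were higher and 0 lower, where 4.43% and 3.61% of all genes were higher and lower. The sources used here do not say how reads of near-identical copies were split, so values of tbxt and tbxt.2, of the ventx genes and of other duplicated genes are uncertain as to the copy.

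Of the inner epidermal ectoderm list, 15 of 18 genes were compared, tp63 and bmp7.1 were higher, none was lower, and the median log2 ratio was 0.05. Bmp7.1, a BMP ligand gene, was at 1304 and 1323 CPM against 627 and 650 CPM, but its level in the wnt8a and rspo3 nuclei, 1643 CPM, was higher still, so it does not tell the classes apart. Col18a1, a collagen of basement membranes, was at 6789 against 3515 CPM (log2 ratio 0.95), near the 7827 CPM of the mettl24 and epha3 nuclei and 3.93 times the wnt8a and rspo3 nuclei (3.78 to 4.09). The AP-2 genes of early epidermis were less marked: tfap2c was at 703 against 503 CPM and tfap2a at 525 against 537 CPM. Against the wnt8a and rspo3 nuclei 9 of 15 genes of the list were higher in members (among them tp63, tfap2a, tfap2c, klf5, dlx3 and dlx5) and 1 was lower. Against the mettl24 and epha3 nuclei 0 were higher and 3 lower, hgf, insm1 and klf5. The shares of all genes called against these classes are those given for the mesoderm list.

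Neural genes split by position along the body axis. Of the neural ectoderm list 16 of 20 genes were compared, 0 were higher and 9 lower, with a median log2 ratio of -1.23. Those lower are genes of the anterior or early neural plate or its border: otx2, the head homeobox gene, had 1 UMI in members against 1042 in all other nuclei (57.9-fold lower, 10.4 to 2287 by counting), and lhx5, of the anterior ectoderm, was at 78.4 against 481 CPM. The Iroquois genes irx1, irx2 and irx3 were 12.4 against 103, 22.7 against 98.1 and 3.24 against 33.3 CPM. Also among them were zic2, foxd4l1.1 and foxd4l1.2. The SoxB1 genes, of neural and early ectodermal progenitors, were not among them, with sox2 at 90.8 against 87.2 CPM and sox3 at 171 against 170 CPM. Sox2 and sox3 of the members were below the pde7b and zic4 nuclei (166 and 271 CPM) and above the wnt8a and rspo3 nuclei (20.7 and 60.3 CPM). A tbxt UMI and a UMI of sox2 or sox3 were found together in 180 members (45.0%) and in 1463 of 7040 other nuclei (20.8%), and after thinning in 109 (27.2%) and 852 (12.1%). Unthinned, the wnt8a and rspo3 nuclei had 24.4% and the shh and chrd.1 nuclei 26.2%. Single shares in members and other nuclei were 77.0% and 41.2% for tbxt, 31.25% and 27.6% for sox2 and 48.0% and 45.4% for sox3. The gap thus lies mostly in tbxt, and an excess over the single shares was not tested. Barcodes with at most 200 UMIs had sox2 at 109 and sox3 at 211 CPM, above the members.

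**Figure D3:**
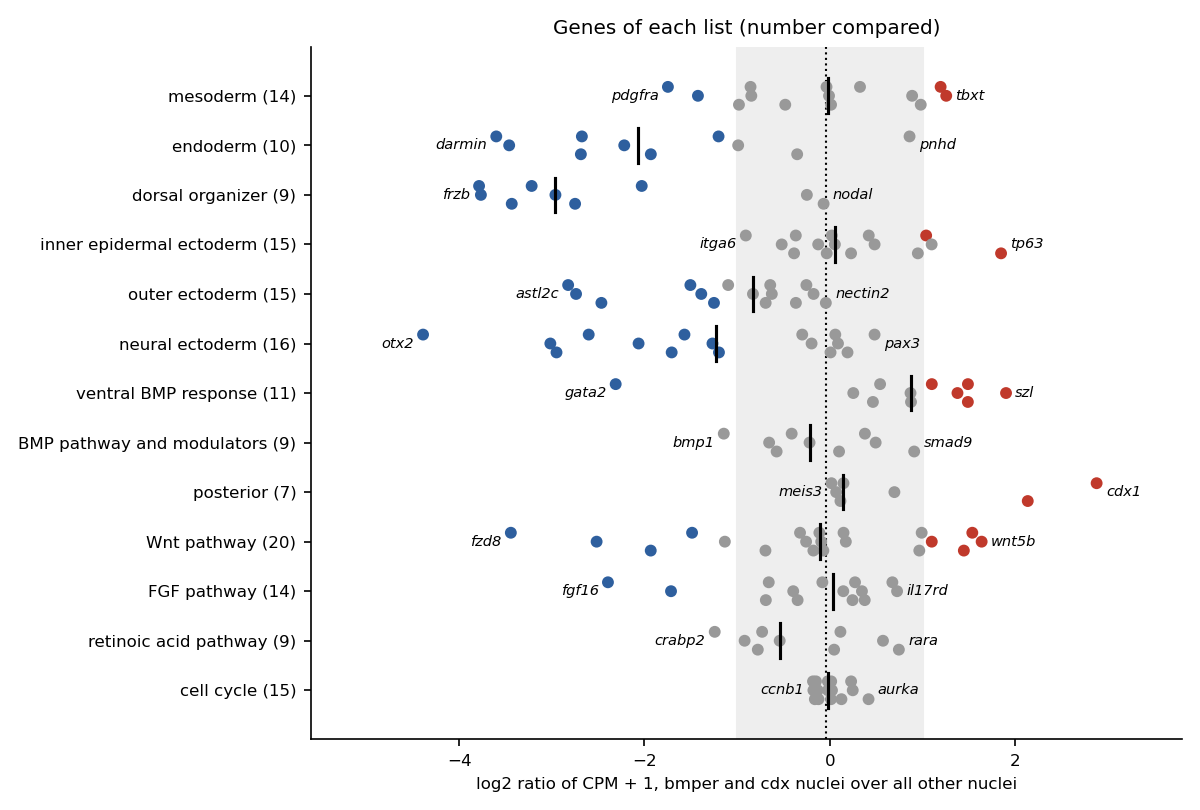
Log2 ratio of CPM + 1 of the bmper and cdx nuclei over all other nuclei for the genes compared of 13 lists, with the lowest and highest gene of each named. Red genes were called higher, blue lower and grey neither, the black bar is the median of the list, the dotted line is the median of all 7540 genes and the shaded band marks less than 2-fold. The bars of the ventral list (0.88) and of the dorsal organizer list (-2.96) lie to opposite sides.

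Endodermal and dorsal genes were low in members. Of the endoderm list 10 of 17 genes were compared, 0 were higher and 7 lower (gata4, gata5, gata6, darmin, nodal1, nodal2 and cer1), with a median log2 ratio of -2.07. Gata6, an endodermal zinc-finger factor, was at 56.4 and 59.2 CPM against 272 and 273 CPM. The exception in direction was pnhd, a secreted factor of the marginal zone, at 269 against 148 CPM, a log2 ratio of 0.86 that missed the call. Of the dorsal organizer list 9 of 15 were compared, 0 were higher and 7 lower, with a median of -2.96, or -2.75 with the gene at 0 UMIs set to 3. Goosecoid (gsc), a homeobox gene of the organizer, had 3 UMIs in members and 779 elsewhere. Dkk1, a Wnt inhibitor gene, had 0 UMIs in members against 226 in all other nuclei, at least 4.18-fold lower by a floor of 3 UMIs over all members.

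Genes of ventral BMP signalling were high against all other nuclei, less so against the nearest classes. Of the ventral BMP response list 11 of 18 genes were compared, 10 had a ratio above 0, 5 were called higher and 1 lower, with a median log2 ratio of 0.88. Against the wnt8a and rspo3 nuclei 0 of 11 were higher and 1 lower, with a median of 0.23. Against the mettl24 and epha3 nuclei 2 were higher, ventx1.1 and ventx1.2, and 1 lower. The shares of all genes called are again those given for the mesoderm list. The summed list was at 3093 ± 176 CPM in members, 2783 ± 125 in the wnt8a and rspo3 nuclei and 2219 ± 19.6 in the mettl24 and epha3 nuclei. Ventx1.1 was at 239 and 230 CPM against 83.2 and 82.3 CPM and ventx1.2 at 432 and 401 CPM against 149 and 146 CPM, while ventx2.1 (0.88) and ventx2.2 (0.87) fell short of the call. Sizzled (szl), a secreted inhibitor of the proteases that cleave Chordin, was at 37.6 and 32.8 CPM against 7.65 and 9.71 CPM. The feedback inhibitors of BMP signalling were higher as well: smad7 was at 1495 against 575 CPM and bambi, a pseudoreceptor, at 213 against 98.8 CPM. Msx1, a BMP-induced homeobox gene with too few UMIs to be compared, had 40 UMIs in members and 150 elsewhere. Gata2, a factor of ventral ectoderm and blood, ran against the list, at 33.2 and 23.3 CPM against 141 and 146 CPM, and its level in members was below that in both the wnt8a and rspo3 nuclei (540 CPM) and the mettl24 and epha3 nuclei (133 CPM). Of the list of BMP ligands, receptors, Smads and modulators 9 of 20 were compared and 0 were called.

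Of the posterior genes that were not in the rule, 7 of 18 were compared, cdx1 and evx1 were higher and 0 lower, with a median log2 ratio of 0.15. The other 5 (meis3, sp5l, sall4, pou5f3.1 and pou5f3.2) were not called, with log2 ratios of 0.02 to 0.70. Cdx1, the third caudal gene (chr3:21131624-21149943), was at 63.0 and 57.1 CPM against 8.01 and 6.57 CPM, 8.23-fold (6.51 to 10.3), which was the highest ratio of all genes compared. Of the 111 cdx1 UMIs of members, 31 and 20 came from the members nearest to the outer ectoderm and endoderm classes, described below, and its log2 ratio of 2.88 was 2.21 without them, and 2.02 with a pseudocount of 10 CPM. Evx1, an even-skipped homeobox factor of posterior mesoderm, was at 32.1 and 20.1 CPM against 4.72 and 5.55 CPM. A cdx1 UMI was found in 74 members (18.5%) and in 191 other nuclei (2.71%), and after thinning in 42 (10.5%) and 117 (1.66%). Cdx1 was at 60.0 CPM in members and at 1.84 to 13.9 CPM in the 6 classes, whereas evx1 (26.0 CPM) was at 36.7 CPM in the wnt8a and rspo3 nuclei and at most 2.53 CPM in the other classes. Most Hox genes had too few UMIs at this stage to be compared.

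Wnt signalling patterns the same axis, with high activity ventrally and posteriorly in the gastrula. Of the Wnt list 20 of 23 genes were compared, 4 were higher and 4 lower, with a median log2 ratio of -0.10. Higher were the ligand gene wnt5b (576 against 184 CPM), the receptor gene fzd10 (97.3 against 32.9 CPM), the nuclear effector gene lef1 (1111 against 518 CPM) and the feedback inhibitor gene nkd1 (133 against 48.2 CPM). Axin2, a general Wnt target, was at 453 against 227 CPM, a log2 ratio of 0.99. Lower were the repressor-type factor gene tcf7l1 (1075 against 4106 CPM), the anterior receptor gene fzd8 (3.24 against 45.1 CPM), the agonist gene rspo2 (60.6 against 171 CPM) and the antagonist gene sfrp2 (8.11 against 51.1 CPM). Wnt8a, the ligand gene of ventrolateral mesoderm that helped to choose a class, was at 276 CPM in members, 117 CPM in all other nuclei and 1216 CPM in the wnt8a and rspo3 nuclei.

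Of the FGF list 14 of 19 genes were compared, 0 were higher and 2 lower, the ligand gene fgf16 and the receptor gene fgfr4, with a median log2 ratio of 0.03. Against the mettl24 and epha3 nuclei 6 of the list were higher, all of them known targets or feedback regulators of FGF signalling (etv1, il17rd, spred1, spry1, spry2 and spry4), and 1 was lower. Of all genes compared 4.43% were higher and 3.61% lower there. Against the wnt8a and rspo3 nuclei 0 were higher and 6 lower, fgf16, the receptor genes fgfr1, fgfr2, fgfr3 and fgfr4, and spry4. Of all genes 7.76% were higher and 6.24% lower in that comparison. Of the retinoic acid list 9 of 14 were compared and 0 called. None of the 15 cell cycle genes was called, with a median of -0.02. Dscaml1, which with tp73 marks a group of nuclei of unknown identity in these embryos, was lower in members at 161 against 641 CPM.

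The 15 genes with the highest ratios past the call were, in order, cdx1, crybg2, esrrg, evx1, LOC116406464, lmo4.2, mfsd12, szl, tp63, tdrp, greb1, LOC100495742, LOC100494953, slc1a3 and wnt5b. Crybg2, a gene of the crystallin-domain family, was at 205 and 142 CPM in members against 28.6 and 25.3 CPM (6.40-fold, 5.61 to 7.28). Esrrg, an orphan nuclear receptor gene (chr5:12441719-12602745), was at 747 and 743 CPM against 150 and 149 CPM (4.97-fold, 4.68 to 5.28). The esrrg level of the mettl24 and epha3 nuclei was 373 CPM and that of the other 5 classes 19.1 to 161 CPM, as with tp63 an epidermal pattern with the members on top. Tdrp showed the opposite order among the classes, at 3806 CPM in members, 2575 CPM in the wnt8a and rspo3 nuclei and 332 CPM in the mettl24 and epha3 nuclei. Lmo4.2, a LIM-only adaptor gene, was at 143 CPM in members and 9.82 to 47.1 CPM in the 6 classes. Mfsd12, a transporter gene, was at 130 CPM in members and 161 CPM in the wnt8a and rspo3 nuclei. Slc1a3, a glutamate transporter gene, had 67 UMIs in members, and its log2 ratio of 1.68 became 0.62 without the members nearest to the outer ectoderm and endoderm classes, described below.

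The 10 lowest were pkdcc.2, otx2, chrd.1, frzb, c6.2, admp, slc6a8, cdk14, darmin and mmp1. Of these, frzb and admp are on the dorsal organizer list, darmin on the endoderm list and otx2 on the neural list, and chrd.1 helped to choose the shh and chrd.1 nuclei. Pkdcc.2, a secreted kinase gene, was at 27.0 against 738 CPM, chordin (chrd.1), the BMP antagonist of the organizer, at 47.0 against 692 CPM, and the Wnt antagonist gene frzb at 17.8 against 259 CPM. The complement gene c6.2 had 0 UMIs in members against 421 elsewhere, at least 7.79-fold lower. Admp, a BMP ligand gene of the organizer, had 3 UMIs (21.4-fold lower, 7.29 to 104) and mmp1, a matrix metalloprotease gene, also 3. The kinase gene cdk14 was at 9.19 CPM in members and 28.1 to 227 CPM in the 6 classes. The ratios of slc6a8, a creatine transporter gene, and of mmp1 changed sign to 0.10 and 0.21 where nuclei needed 2000 genes.

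In 52 of 7516 genes (0.692%) the members were at least 2-fold above both the wnt8a and rspo3 nuclei and the mettl24 and epha3 nuclei, and in 53 (0.705%) at least 2-fold below both. Cdx1 led the first by the smaller of its ratios (log2 3.31 and 3.95), and the list also held crb2, a polarity gene (20.5, 1.72 and 1.76 CPM), fam184a (152, 26.4 and 25.8 CPM), crybg2 and pkp3, a desmosome gene (163, 27.0 and 41.1 CPM). Crb2, fam184a, pkp3 and tjp3 were named after their values were seen. In all other nuclei pkp3 was at 159 CPM, so not all of these genes are high only in members. Nectin2 was at 834 CPM in members against 860 in all other nuclei and tjp3 at 235 against 307. Cdx1 (60.0 against 7.30 CPM) and crybg2 (172 against 27.0 CPM) were higher in members. Neither class compared here is of the outer layer. How far this list comes from the members nearest to the outer ectoderm and endoderm classes, described below, was not tested. Among those below both were cdk14, irx1, gata2 and otx2.

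Each nucleus was then given the class whose profile fit it best, by the likelihood of its counts under profiles of the other sublibrary over all genes except the rule genes and the markers of the classes. Of the members, 176 were closest to the mettl24 and epha3 nuclei (44.0%, 39.1 to 49.0%), 90 to the pde7b and zic4 nuclei (22.5%, 18.5 to 26.9%), 63 to the wnt8a and rspo3 nuclei (15.8%, 12.3 to 19.7%), 31 to the creb3l4 and atp1b2 nuclei (7.75%), 23 to the slc12a3l and foxp2 nuclei (5.75%) and 17 to the shh and chrd.1 nuclei (4.25%). The shares of the first and the third were 47.2% and 13.8% in sublibrary 1 and 41.0% and 17.6% in sublibrary 2. The share closest to the mettl24 and epha3 nuclei depended on the choice of members: it was 53.5% in the 200 highest scores, 34.4% in the 800 highest, 30.0% where nuclei needed 2000 genes and 27.8% without bmper in the score. The nuclei of the classes fell back into their own class at 72.3% (slc12a3l and foxp2) to 99.2% (creb3l4 and atp1b2), with 90.3% for the wnt8a and rspo3 nuclei and 76.3% for the mettl24 and epha3 nuclei. No class of posterior ectoderm or posterior mesoderm was among the 6, so the nearest class is not an identity.

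**Figure D4:**
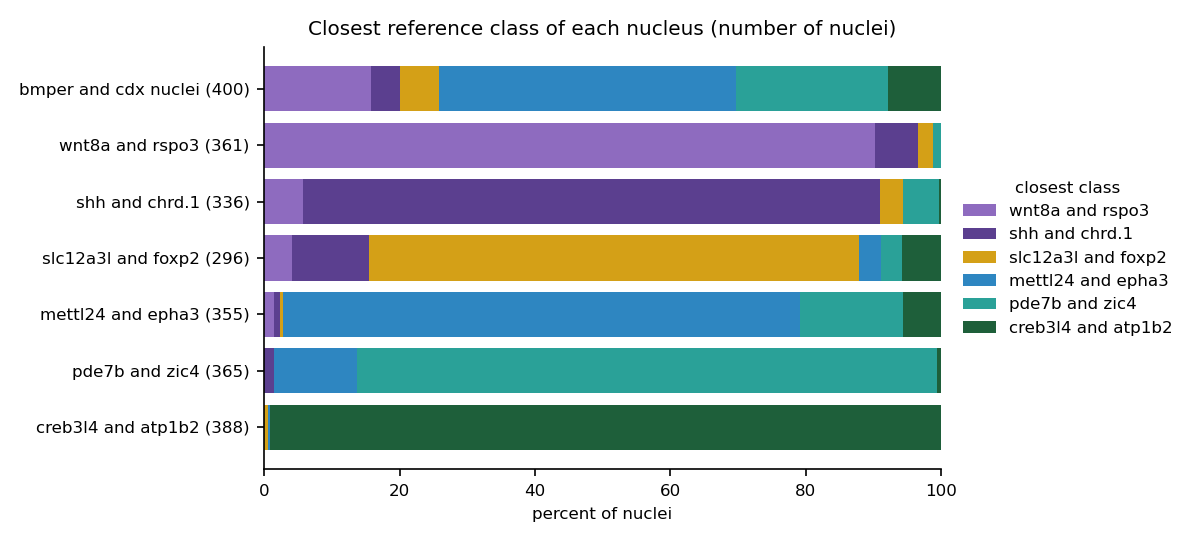
Percent of nuclei by their closest class (colours) for the bmper and cdx nuclei and for the nuclei of each of the 6 classes, with the number of nuclei in brackets. The classes are mostly 1 colour, whereas the members are divided, with 44.0% closest to the mettl24 and epha3 nuclei, 22.5% to the pde7b and zic4 nuclei and 15.8% to the wnt8a and rspo3 nuclei.

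The members were not uniform, and the values by closest class show how. They are a description, since tbxt, tp63 and most other genes given here took part in the division. The 63 members closest to the wnt8a and rspo3 nuclei had tbxt at 2405 CPM, wnt8a at 773 CPM and tp63 at 213 CPM. The 176 closest to the mettl24 and epha3 nuclei had tbxt at 699 CPM, tp63 at 563 CPM and col18a1 at 9373 CPM. The 90 closest to the pde7b and zic4 nuclei had tbxt at 1282 CPM, tp63 at 364 CPM and sox3 at 237 CPM. Each of these 3 divisions kept both genes: their tbxt was above the 102 CPM of the mettl24 and epha3 nuclei, and their tp63 above the 23.0 CPM of the wnt8a and rspo3 nuclei. The 17 closest to the shh and chrd.1 nuclei were different, with tbxt at 2193 CPM and tp63 at 25.6 CPM.

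A smaller set of members carried genes of the outer epithelial layer. The 31 members closest to the creb3l4 and atp1b2 nuclei had grhl3, a Grainyhead-like factor gene, at 3281 CPM and epas1 at 9732 CPM, with tbxt at 68.8 CPM and col18a1 at 468 CPM. The 23 closest to the slc12a3l and foxp2 nuclei also had grhl3 at 1459 CPM and epas1 at 5987 CPM, with tbxt at 880 CPM and gata6 at 210 CPM. That class itself held the summed outer ectoderm list at 6962 CPM. The list was at 1157 CPM in the wnt8a and rspo3, 3502 in the mettl24 and epha3 and 7631 in all other nuclei. Members closest to that class are thus not shown to be endodermal. Of the rule genes, bmper was at 337 and 380 CPM in the 2 sets, below its level over all members but above that in all other nuclei. Cdx2 was at 977 and 990 CPM, above its level over all members. Likewise, the 49 members with no bmper UMI had epas1 at 6134 CPM and col18a1 at 1726 CPM, where the 351 with bmper had 941 and 7424 CPM. Cdx1 was at 213 and 200 CPM in these sets and at 20.3 to 51.3 CPM in the other 4 sets by closest class. Over all members the outer ectoderm list was low, with 6 of 15 genes lower, 0 higher and a median log2 ratio of -0.83, and a grhl3 UMI was found in 104 members (26.0%) and 2615 other nuclei (37.1%). Without the 54 members of both sets the counts of genes called higher and lower were 94 and 553, of which 72 and 335 were among the 79 and 363 of all members, and the log2 ratios of tbxt and tp63 were 1.39 and 1.93.

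Levels also moved with the rank of the score, which again is a description of the choice. Tp63 was at 535 CPM (470 to 607) in the 100 highest scores, 399 CPM and 438 CPM in the next 2 runs of 100 and 227 CPM (185 to 275) in the last 100. The level of col18a1 went from 8465 to 5769 CPM and that of tbxt from 1323 to 1025 CPM over the same runs. Grhl3 was lowest in the highest scores, at 90.0 CPM, and at 454 to 564 CPM in the other 3 runs. In the 400 eligible nuclei just outside, tbxt was at 1031 CPM, tp63 at 278 CPM, cdx1 at 39.8 CPM and grhl3 at 483 CPM. The levels of tbxt and tp63 there overlapped those of the last 100 members in their intervals, so these summed levels did not end at the limit. Whether single nuclei there held both genes was not counted. In the 5946 nuclei that were not eligible they were at 371 and 93.6 CPM.

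**Figure D5:**
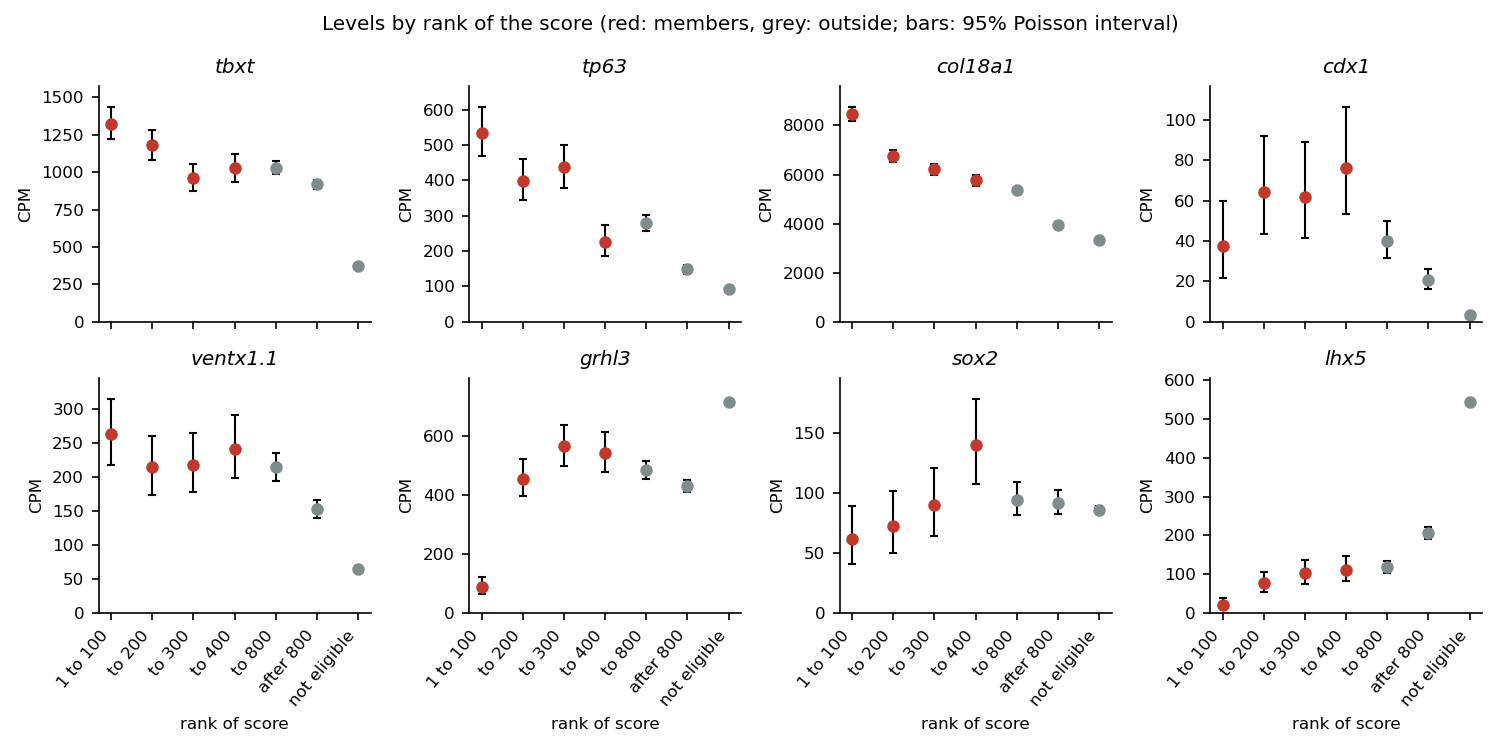
Level in CPM (linear axes from 0, 95% Poisson intervals) of 8 genes by rank of the score: 4 runs of 100 members (red), the next 400 eligible nuclei, the remaining eligible nuclei and those not eligible (grey). Tp63 and col18a1 are highest in the first run, grhl3 is lowest there (90.0 CPM), and lhx5 is low in all 4 runs against 542 CPM in nuclei not eligible.

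Members were also split by single rule genes. The 162 members with a ventx3.2 UMI had tbxt at 1428 CPM and wnt8a at 368 CPM, against 897 and 208 CPM in the 238 without, while tp63 was at 403 and 397 CPM. The 286 with a cdx2 UMI had fgf8 at 909 CPM and cdx1 at 76.9 CPM, against 444 and 17.2 CPM in the 114 without. The 69 members with a hoxd1 UMI had tbxt at 1198 CPM and tp63 at 442 CPM, and the 331 without had 1105 and 390 CPM. These splits are a description, since the same genes chose the members. In the ventx3.2 and hoxd1 splits tbxt and tp63 were above their levels in all other nuclei (469 and 110 CPM). The split by bmper is given above for epas1 and col18a1 only. Tbxt and tp63 are not given for the splits by bmper, cdx2 and cdx4, so whether the pair holds there is not shown.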

How the data were processed

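Nuclei of wild-type Xenopus tropicalis embryos at stage 10.5 were processed by the authors with the pipeline of the Parse kit, and aligned to UCB_Xtro_10.0. The deposited counts are UMIs per barcode and gene, neither normalised nor filtered, for 215209 barcodes and 21821 genes with both sublibraries in 1 matrix (88367710 UMIs in all). The deposited barcode table gives the counts of genes and UMIs per barcode, and the suffix of a barcode gave its sublibrary. The submitters' processing notes also name Seurat and Scanpy 1.9.6. The sources used here do not say how reads shared by similar genes were treated. The cross-linking and nuclear isolation mean that mostly nuclear RNA was counted. The study states a larger number of nuclei at its minimum of 1500 genes than the 8474 barcodes that pass this minimum in the deposited matrix, of which 7440 also had at most 8000 UMIs.

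UMIs of each gene were added up within a class of nuclei and scaled to 1000000 (CPM). Ratios are log2 of CPM + 1 and so understate differences of low genes. Genes with at least 200 UMIs over all 7440 nuclei were compared. Because 1 pool was sampled and nuclei are not replicates, no test was run, and a call means at least 2-fold in the pool and in each of 2 sublibraries. Classes were the 400 nuclei, members left out, with the highest summed UMIs of 3 to 5 marker genes per UMI and at least 2 of them detected, and 135 nuclei that fell into 2 classes were left out of both. For the closest class, 0.5 was added to each gene of the profiles. Scrublet (scanpy 1.11.5) was run per sublibrary. Python 3.11, numpy and scipy were used. Gene positions were matched by symbol to the RefSeq genes of the same assembly for all 281 listed genes. The named genes are the 5 rule genes, the 15 highest and 10 lowest ratios past the call, and genes of the lists. The members, the lists and the marker genes were chosen with earlier results of these data known, some markers having been found in these nuclei. Alternatives were other numbers of members, gene and UMI limits, doublet removal, scores without a gene, other scaling, weighting, filters and pseudocount, and leaving out each sublibrary.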

Additional observations from a re-analysis of the deposited data

How the results depend on the processing

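The alternatives changed the number of members (200 or 800), the limits on genes and UMIs, doublets, the genes of the score, the scaling, the weighting, the filter, the pseudocount or the sublibraries, and 1 was added after seeing the data, in which the 54 members closest to the outer ectoderm or endoderm class were left out. Of the 16 alternatives, several could not turn the sign of a called gene. Another UMI minimum or pseudocount cannot. Leaving out a sublibrary returns the ratio of the other, which the call already required to pass 2-fold. Rescaling by a median log2 ratio of -0.04 is too small a shift. Under the others all 81 named genes called in members kept their direction, with 1 exception. This was the minimum of 2000 genes, which left 1974 nuclei to choose 400 from. There 77 kept it, and slc12a3l (0.29), slc5a8.1 (0.53), slc6a8 (0.10) and mmp1 (0.21) changed sign. The log2 ratio of tbxt stayed at 1.197 to 1.391, that of tp63 at 1.33 to 2.04 and that of cdx1 at 2.02 to 3.36 throughout. Without bmper in the score 72 of the 81 stayed past 2-fold, and bmp7.1 was at 0.52 and epas1 at -0.30.

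The 79 genes called higher became 39 with the minimum of 2000 genes and 45 with a pseudocount of 10 CPM, and 95 to 100 with 1 sublibrary left out. The 363 called lower became 68 and 161 under the same settings, 584 at a minimum of 50 UMIs, 670 with no minimum, 553 under the added alternative, and 393 to 463 with 1 sublibrary left out. The genes themselves changed too. Without bmper in the score 78 were higher and 266 lower, but only 47 and 189 of these were among the 79 and 363. With the minimum of 2000 genes only 35 and 59 were. The more genes enter or the fewer sublibraries must pass, the more calls the rule can make.

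The medians of the mesoderm and inner epidermal lists lay near 0 and changed sign between settings, so neither list as a whole has a direction. For the mesoderm list (-0.022) the median was 0.029 with 200 members, 0.22 with 800, -0.57 with no UMI maximum, -0.16 and 0.31 with minimums of 1000 and 2000 genes, 0.22 and -0.092 without bmper and without ventx3.2 in the score, 0.026 with nuclei weighted equally, 0.020 after rescaling, -0.10 and -0.043 with minimums of 50 UMIs and 1 UMI, 0.020 under the added alternative, and -0.080 to -0.062 with 1 sublibrary left out. For the inner epidermal list (0.054) it was -0.027 with 200 members, 0.15 with no UMI maximum, 0.10 and 0.24 with 1000 and 2000 genes, 0.021 without doublets, -0.0055 without bmper, -0.000720 without ventx3.2, 0.094 after rescaling, -0.0063 with no minimum, 0.22 under the added alternative, and 0.068 to 0.13 with 1 sublibrary left out. The neural list (-1.23) stayed negative, at -0.92 with 800 members, -0.56 with 2000 genes, -0.80 without bmper, -0.88 with no minimum and -0.75 with the larger pseudocount. The share closest to the wnt8a and rspo3 class (15.8%) was 21.5% with 200 members and 10.2% with 2000 genes, and 16.1 to 16.4% with 1 sublibrary left out. The share closest to the mettl24 and epha3 class was 27.8% without bmper in the score, against 44.0%. Where not stated, the cause was not tested.

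No paired analysis was possible because the sublibraries are of 1 group. With 1 pool of embryos, the spread between embryos is not known. Genes under about 200 UMIs, most Hox genes among them, could not be compared at this depth, and a class of posterior mesoderm or posterior ectoderm chosen by independent genes was not used here.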
